A study of Mus musculus with 2 samples.

Results

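The members described here are 8 genes of the NF-κB pathway, the subunit genes Nfkb1, Rela, Rel, Nfkb2 and Relb and the inhibitor or feedback genes Nfkbia, Bcl3 and Tnfaip3, found by symbol among the 19465 genes of each count matrix. The members were chosen by their role, with the higher CPM of Nfkb1 and Rela at the surface of the S1pr2fl/fl K14-Cre section already known, so the ratios between the sections are given as a description and support nothing. The data are UMI counts (a UMI is a molecular tag that counts 1 ligated probe pair) in spots over 2 skin sections, 1 from an IMQ-treated S1pr2fl/fl mouse and 1 from an IMQ-treated S1pr2fl/fl K14-Cre mouse. Both mice carried floxed S1pr2, the gene of a sphingosine 1-phosphate receptor, were 8 weeks old, and received 62.5 mg of 5% imiquimod (IMQ) cream daily for 7 days on depilated back skin, which causes psoriasis-like inflammation. In the S1pr2fl/fl K14-Cre mouse the keratin 14 promoter drives Cre in keratinocytes, so that other cells of the skin keep the floxed gene. With 1 section of each genotype no test between genotypes was possible, and mouse, section and genotype cannot be told apart.

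NF-κB is a family of transcription factors that act as pairs of subunits. In resting cells the pairs are held in the cytoplasm by IκB proteins, and inflammatory receptors free them through the IKK kinases, which mark the IκB protein for degradation. Freed NF-κB switches on cytokine and chemokine genes and also its own inhibitors, so that the response is limited in time. In the epidermis the pathway is known for its part in psoriasis-like inflammation.

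A few promoters are shown because Nfkbia and Rela moved in opposite directions at the surface and because Nfkb2 is known to be under the control of NF-κB. The sequences are from RefSeq (GRCm38.p6) and run from 250 bases before to 50 bases after the start of the transcript. Capitals mark matches to the κB consensus on either strand, with overlapping matches joined. They are Nfkbia on chr12:55492598-55492897 (minus strand), Nfkb2 on chr19:46304487-46304786 (plus strand) and Rela on chr19:5637291-5637590 (plus strand).
Nfkbia: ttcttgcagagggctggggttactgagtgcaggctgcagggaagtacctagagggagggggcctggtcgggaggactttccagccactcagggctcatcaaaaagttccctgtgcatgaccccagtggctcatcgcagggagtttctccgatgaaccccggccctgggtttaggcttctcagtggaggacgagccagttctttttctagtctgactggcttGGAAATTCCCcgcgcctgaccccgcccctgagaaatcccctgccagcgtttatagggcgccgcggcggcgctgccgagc
Nfkb2: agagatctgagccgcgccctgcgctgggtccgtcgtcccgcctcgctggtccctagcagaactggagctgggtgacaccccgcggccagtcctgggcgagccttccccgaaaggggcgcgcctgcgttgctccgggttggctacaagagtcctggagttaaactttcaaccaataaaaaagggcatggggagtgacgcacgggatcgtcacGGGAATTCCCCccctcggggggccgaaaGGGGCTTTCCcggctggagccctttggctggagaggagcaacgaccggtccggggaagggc
Rela: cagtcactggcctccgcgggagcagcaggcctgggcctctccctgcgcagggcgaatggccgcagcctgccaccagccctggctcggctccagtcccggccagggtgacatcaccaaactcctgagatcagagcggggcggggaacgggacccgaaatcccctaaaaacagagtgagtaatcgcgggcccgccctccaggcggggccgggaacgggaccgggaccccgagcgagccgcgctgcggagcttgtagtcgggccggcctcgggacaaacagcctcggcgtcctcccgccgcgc
Promoters were found for 6 of the 8 members, and 5 of these (Bcl3, Tnfaip3, Rel, Nfkbia and Nfkb2) held a match in at least 1 promoter. Counted by promoter, 7 of the 9 member promoters held it, some of them overlapping, against 4.51% of all 32851 promoters of the same length. The match in the Nfkbia promoter began 29 bases before the start, and Rela had none in this window. A match describes the letters and not a bound site. Of the 5 members with a match, Bcl3 and Nfkb2 had higher CPM at the surface of the S1pr2fl/fl K14-Cre section, as Rela had. Nfkbia, Rel and Tnfaip3 had lower CPM there. Rel and Tnfaip3 had only 7 and 4 UMIs there, and the intervals of their ratios include equal levels. The directions of Nfkb2, Bcl3 and Tnfaip3 turned in some of the other settings given below. A link between matches and the direction was not tested.

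Over the S1pr2fl/fl tissue lay 1282 spots with 5315351 UMIs, and over the S1pr2fl/fl K14-Cre tissue 981 spots with 2845826 UMIs. Each spot covers several cells. Spots were assigned to keratinocyte, dermis, fat or muscle marker genes, whichever list had the highest share of UMIs relative to the section's mean, and are called keratinocyte, dermis, fat and muscle spots below. Keratinocyte spots numbered 403 and 297, and 86.4% and 91.5% of those with a measured depth were among the 2 uppermost spots of their array column, so they stand for the surface. The layers below were not equally deep in the sections: 0.488% of fat spots and 13.9% of dermis spots were among the 2 uppermost in the S1pr2fl/fl section, against 23.8% and 38.2% in the S1pr2fl/fl K14-Cre section. In keratinocyte spots, which were picked by them, keratinocyte markers summed to 90852 CPM in the S1pr2fl/fl section and 50138 CPM in the S1pr2fl/fl K14-Cre section. CPM are UMIs per 1000000 UMIs of the same layer and section. S1pr2 itself did not set the keratinocyte spots of the sections apart, with 42 UMIs (19.3 CPM) against 14 UMIs (16.2 CPM) and a ratio of 0.840 (95% interval 0.424 to 1.57), and whether its probes lie in the deleted part is not given in the sources used here. The 14 UMIs lie near the background of the probes described below, a mean of 7.68 UMIs in these spots against 3.65 UMIs in the S1pr2fl/fl section. The ratio therefore does not show that S1pr2 RNA was unchanged.

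**Figure D1:**
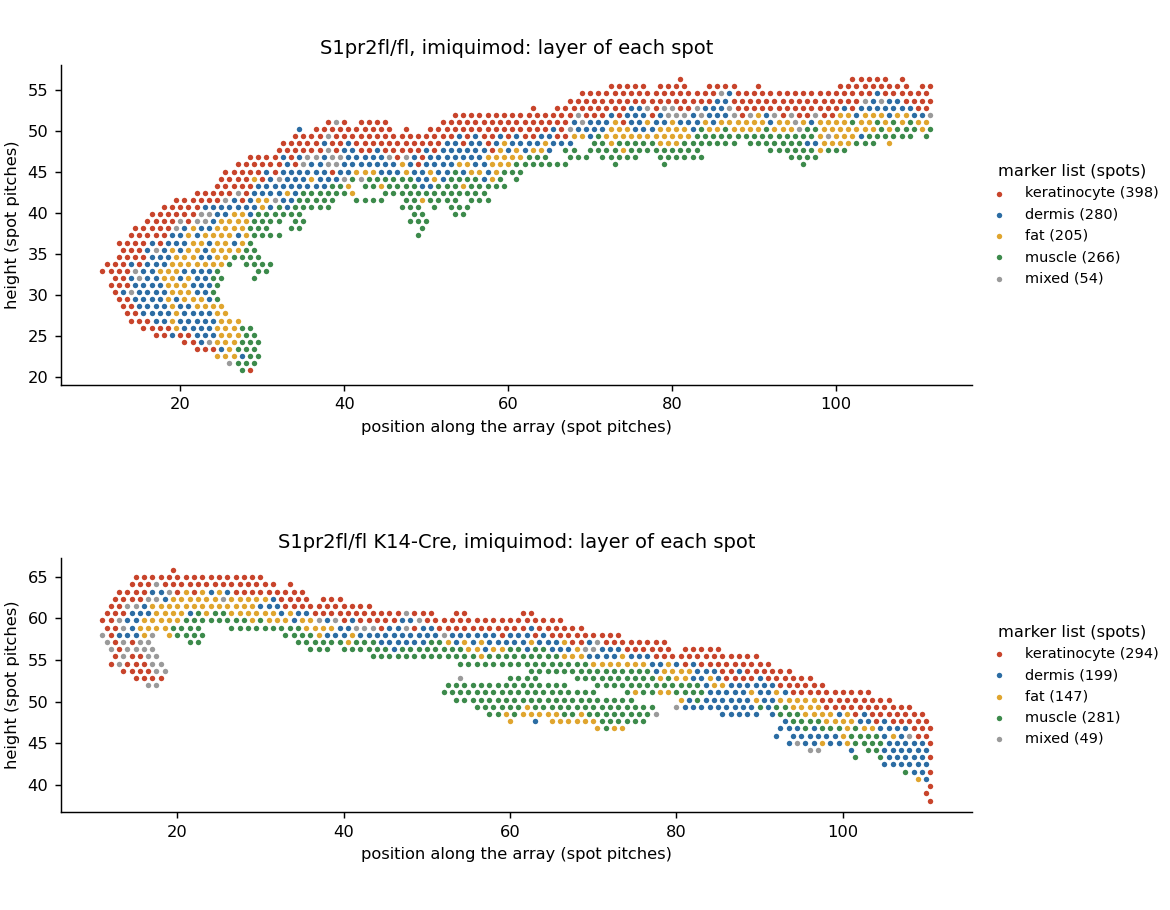
Position of each spot in connected tissue, in spot pitches, coloured by the marker list that it was assigned to, with the number of spots drawn in the key. In both sections keratinocyte spots line the upper edge and muscle spots the lower edge, both sections bend at one end, and the S1pr2fl/fl K14-Cre section carries a further band of muscle spots below the skin.

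The 1226 chemosensory receptor genes were taken as a stand-in for the background of the probes. That none of them is expressed in skin was assumed and not tested. Their summed level in keratinocyte spots was 2050 CPM in the S1pr2fl/fl section and 10871 CPM in the S1pr2fl/fl K14-Cre section, 5.30-fold higher (5.12 to 5.50). The same ratio was 2.13 in dermis, 1.88 in fat and 1.19 in muscle spots. A single receptor gene averaged 3.65 UMIs in the keratinocyte spots of the first section and 7.68 UMIs in those of the second. At the surface this background therefore moved in the direction that Nfkb1 and Rela did. In the other layers it was higher too, where Nfkb1 was level or lower and Rela was 1.74-fold higher in fat spots. With the mean of a receptor gene taken off their UMIs, Nfkb1 and Rela had log2 ratios of 1.27 and 1.15 at the surface, beside 1.29 and 1.18 without this step. The step takes 3.65 and 7.68 UMIs off counts between 295 and 329 UMIs, so it could hardly move these ratios. The part of the background in them was not tested. All ratios below are S1pr2fl/fl K14-Cre over S1pr2fl/fl, and all 95% intervals cover counting error only. The intervals take UMIs as falling independently and are too narrow where UMIs gather in few spots.

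Nfkb1 and Rela, the genes of the main inducible NF-κB pair, were higher at the surface of the S1pr2fl/fl K14-Cre section, and Nfkbia, the gene of the inhibitor that holds this pair in the cytoplasm, was lower there. Nfkb1 was 2.44-fold and Rela 2.26-fold higher in keratinocyte spots, while Nfkbia stood at 0.502 of its level. Deeper in the skin the members parted. Nfkb1 was not higher in any other layer, Rela was also higher in fat spots, and Nfkbia was lower in every layer.

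Nfkb1 encodes the precursor of a subunit that binds DNA but cannot activate transcription alone. In keratinocyte spots it had 322 UMIs, or 148 CPM (132 to 165), in the S1pr2fl/fl section and 312 UMIs, or 360 CPM (321 to 403), in the S1pr2fl/fl K14-Cre section. Both levels stood far over the receptor genes, at 88.3 and 40.6 times the UMIs of a mean receptor gene. In dermis spots it had 211 CPM and 200 CPM, a ratio of 0.946 (0.752 to 1.19), and in fat spots 145 CPM and 128 CPM, a ratio of 0.880 (0.635 to 1.21). Neither interval left out equal levels. In muscle spots Nfkb1 was lower in the S1pr2fl/fl K14-Cre section, with 61.8 CPM against 114 CPM and a ratio of 0.540 (0.379 to 0.762). Its 52 UMIs there lay in 21 of 281 spots, with 12 in 1 spot. The 102 UMIs of the S1pr2fl/fl section lay in 55 of 281 spots, with at most 7 in a spot. Of all genes tested in muscle spots, 18.9% had a ratio lower still. The muscle spots were not alike, with muscle markers at 83142 CPM in the S1pr2fl/fl section and 155244 CPM in the S1pr2fl/fl K14-Cre section. The part of this in the ratio was not tested. The log2 ratio in keratinocyte spots exceeded that in muscle spots by 2.18 (1.64 to 2.71), that in dermis spots by 1.37 (0.98 to 1.76) and that in fat spots by 1.47 (0.97 to 1.97). The receptor genes differed between the same layers by 2.16 (2.06 to 2.26), 1.32 and 1.50, and all 3 lay within the intervals of Nfkb1. Between the depth bands described below the receptor genes differed by 1.46 (1.37 to 1.54) and Nfkb1 by 1.98 (1.49 to 2.47), with intervals that overlap.

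Rela encodes the subunit that carries the activating domain of the pair. In keratinocyte spots it had 329 UMIs, or 151 CPM (135 to 168), in the S1pr2fl/fl section and 295 UMIs, or 341 CPM (303 to 382), in the S1pr2fl/fl K14-Cre section. Its levels in fat spots were 140 CPM (117 to 168) and 245 CPM (201 to 294), 1.74-fold higher (1.34 to 2.26) in the S1pr2fl/fl K14-Cre section. Without spots among the 2 uppermost, an alternative added after seeing the data, the ratio in fat spots was 1.46 (1.08 to 1.97). Among these deeper spots it was 1.13 (0.859 to 1.47) in dermis and 1.06 (0.778 to 1.46) in muscle spots. By marker layer, the higher level of Rela below the uppermost spots was thus seen in fat spots alone. Nfkb1 in the same deeper fat spots had a ratio of 0.653 (0.434 to 0.960). Fat spots were not alike in the sections, with muscle markers at 17231 and 53112 CPM and keratinocyte markers at 23225 and 5095 CPM. The receptor genes had 3223 and 6042 CPM there. The part of these in the ratio of Rela was not tested. In dermis spots Rela had 174 CPM and 217 CPM, a ratio of 1.25 (0.989 to 1.57). In muscle spots it had 94.1 CPM and 101 CPM, a ratio of 1.07 (0.784 to 1.47). These last intervals include equal levels. The log2 ratio in keratinocyte spots exceeded that in muscle spots by 1.07 (0.58 to 1.56) and that in dermis spots by 0.86 (0.46 to 1.25), whereas its excess over fat spots, 0.38 (-0.06 to 0.81), could not be told from 0 at this depth. The excess over muscle spots depended on the scaling and was 0.15 with TMM factors and 0.27 as UMIs per spot.

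Rel encodes a subunit best known in lymphocytes and myeloid cells. It was sparse, with 37 UMIs (17.0 CPM) in the keratinocyte spots of the S1pr2fl/fl section and 7 UMIs (8.08 CPM) in those of the S1pr2fl/fl K14-Cre section, the latter below the mean of a receptor gene. Its ratio of 0.477 had an interval from 0.179 to 1.08. No order can be read from Rel in the deeper layers, where it had between 4 and 10 UMIs in each section.

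Nfkb2 and Relb encode the pair of the noncanonical pathway, which lymphotoxin and related receptors use. Nfkb2 had 29.3 CPM (64 UMIs) and 47.4 CPM (41 UMIs) in keratinocyte spots, a ratio of 1.61 (1.06 to 2.43) that turned to a log2 ratio of -0.078 with TMM scaling, and a ratio of 1.72 (1.06 to 2.80) in dermis spots. Its ratios in fat and muscle spots, 1.03 (0.484 to 2.11) and 1.06 (0.560 to 2.01), lay near equal levels. Relb had 15.1 CPM (33 UMIs) and 26.6 CPM (23 UMIs) in keratinocyte spots, a ratio of 1.76 with an interval from 0.984 to 3.08 and a log2 ratio of -0.081 as UMIs per spot without scaling. In dermis spots Relb was lower in the S1pr2fl/fl K14-Cre section, with 40.6 CPM (43 UMIs) against 11.7 CPM (7 UMIs), and in muscle spots with 35.9 CPM (32 UMIs) against 15.4 CPM (13 UMIs). Relb was therefore, like Nfkb1, lower in the deepest layer and not at the surface, and its log2 ratio in keratinocyte spots exceeded that in muscle spots by 2.03 (0.82 to 3.23).

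Nfkbia encodes IκBα, the inhibitor that NF-κB induces as its own brake. In keratinocyte spots it had 497 UMIs, or 228 CPM (208 to 249), in the S1pr2fl/fl section and 99 UMIs, or 114 CPM (92.9 to 139), in the S1pr2fl/fl K14-Cre section. The pairs of levels were 150 CPM and 58.4 CPM in dermis, 142 CPM and 54.1 CPM in fat, and 89.6 CPM and 33.3 CPM in muscle spots. The ratios were 0.502 (0.400 to 0.624) in keratinocyte, 0.389 (0.262 to 0.564) in dermis, 0.382 (0.238 to 0.590) in fat and 0.371 (0.232 to 0.577) in muscle spots. Nfkbia was thus lower throughout the skin of the S1pr2fl/fl K14-Cre section, against the direction of the receptor genes in every layer. The log2 ratio at the surface and that in muscle spots differed by 0.44 (-0.26 to 1.13), so a difference between layers was not detectable at this depth.

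Bcl3 encodes an atypical IκB protein that works in the nucleus as a partner of DNA-bound subunits. It had 33.0 CPM (72 UMIs) and 58.9 CPM (51 UMIs) in keratinocyte spots, a ratio of 1.78 (1.22 to 2.59) that turned to a log2 ratio of -0.057 as UMIs per spot without scaling. Its ratios in the other layers, 0.789 in dermis, 1.36 in fat and 1.41 in muscle spots, all had intervals that include equal levels. Tnfaip3 encodes a ubiquitin-editing enzyme that ends NF-κB signalling. It had 15 UMIs (6.88 CPM) and 4 UMIs (4.62 CPM) in keratinocyte spots, and in the S1pr2fl/fl K14-Cre section this is below the mean of a receptor gene. The sign of its surface log2 ratio, -0.57, turned to 0.27 in the 2 uppermost spots. In muscle spots Tnfaip3 had 10 UMIs (11.2 CPM) and 21 UMIs (24.9 CPM), a ratio of 2.23 (1.00 to 5.29), and it was the member with the highest ratio there.

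**Figure D2:**
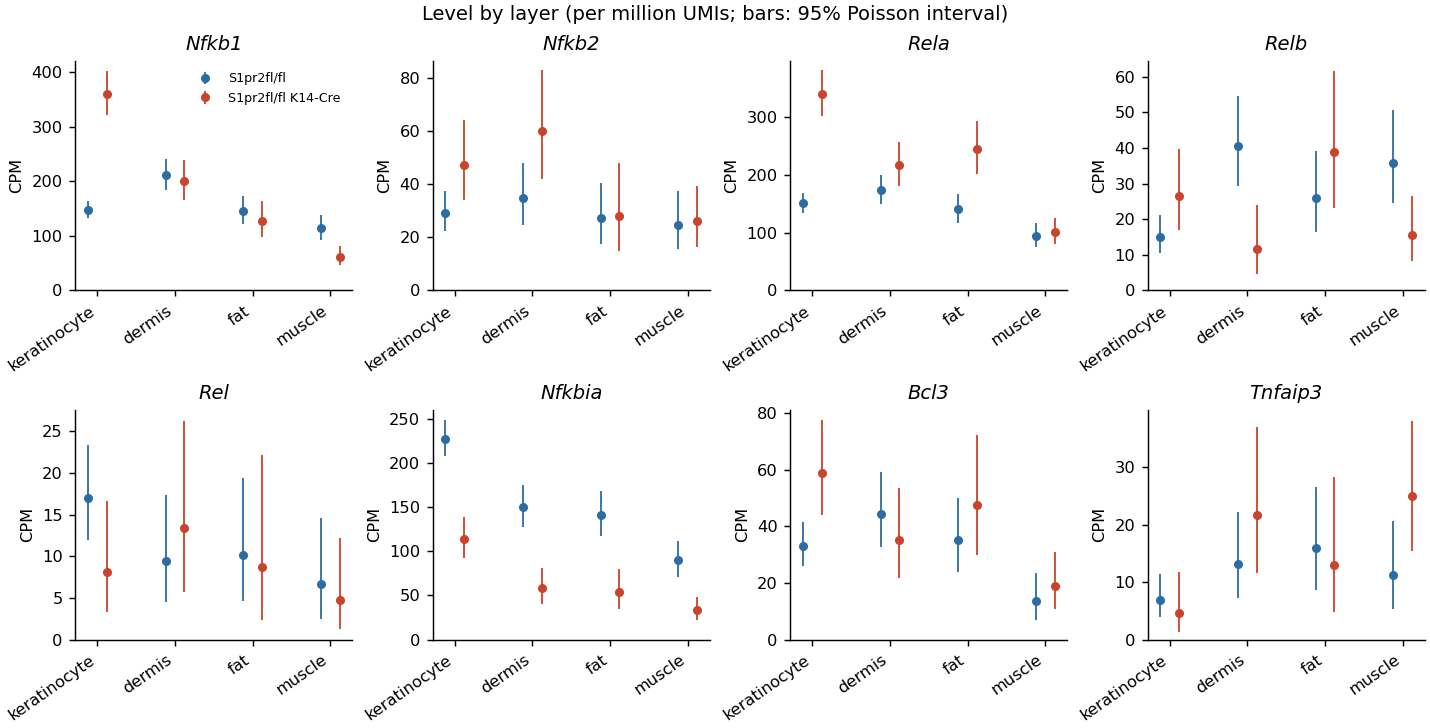
CPM of each member in keratinocyte, dermis, fat and muscle spots of the S1pr2fl/fl section (blue) and the S1pr2fl/fl K14-Cre section (red), with exact 95% Poisson intervals. Nfkb1 and Rela are higher in the second section in keratinocyte spots (360 and 341 CPM against 148 and 151 CPM), while Nfkbia is lower in all 4 layers.

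A member was called when its ratio was at least 2 or at most 0.5, among genes with at least 20 UMIs in the layer over both sections. In keratinocyte spots 2 of the 7 members with enough UMIs were at least 2-fold higher (Nfkb1 and Rela), where 32.9% of all 13116 genes tested were, and 1 was at least 2-fold lower (Rel), where 8.10% of all genes were. The values of Nfkb1 and Rela were known when the members were chosen, so nothing is read from this share. With TMM scaling, which moves all log2 ratios in these spots by 0.77, Nfkb1 and Rela had log2 ratios of 0.52 and 0.41 in place of 1.29 and 1.18, 0 members were at least 2-fold higher, and the shares of all genes became 17.1% higher and 25.8% lower. The median log2 ratio was 0.81 over the members tested and 0.45 over all genes tested, and 26.0% of genes had a higher ratio than Nfkb1 and 28.5% a higher ratio than Rela. Nfkbia, at 0.502, lay just outside the 2-fold limit, and 91.8% of genes had a higher ratio. Many of the genes past 2-fold were sparse: among the 2918 genes with at least 200 UMIs, a limit added after seeing the data, 8.43% were at least 2-fold higher and 14.3% at least 2-fold lower. Of these better-counted genes 4.01% had a higher ratio than Nfkb1, 5.45% a higher ratio than Rela and 85.6% a higher ratio than Nfkbia. The limit is on UMIs of both sections together, and keratinocyte spots held 2181450 UMIs in the S1pr2fl/fl section and 865883 in the other. It therefore favours genes that are high in the S1pr2fl/fl section. The places of Nfkb1 and Rela among genes are those of values known beforehand, and nothing is read from them.

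In dermis spots Relb and Nfkbia, 2 of 7 members tested, were at least 2-fold lower, where 11.4% of all genes were, and 0 were at least 2-fold higher, where 12.3% of genes were. In fat spots Nfkbia alone of 7 was at least 2-fold lower (14.6% of all genes), and 0 were at least 2-fold higher (7.98%). In muscle spots Relb and Nfkbia were at least 2-fold lower (15.9% of all genes) and Tnfaip3 was at least 2-fold higher (4.75%), a call that was lost when the bent end of each section was left out. Nfkbia was the member past or at the edge of the limit in every layer.

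**Figure D3:**
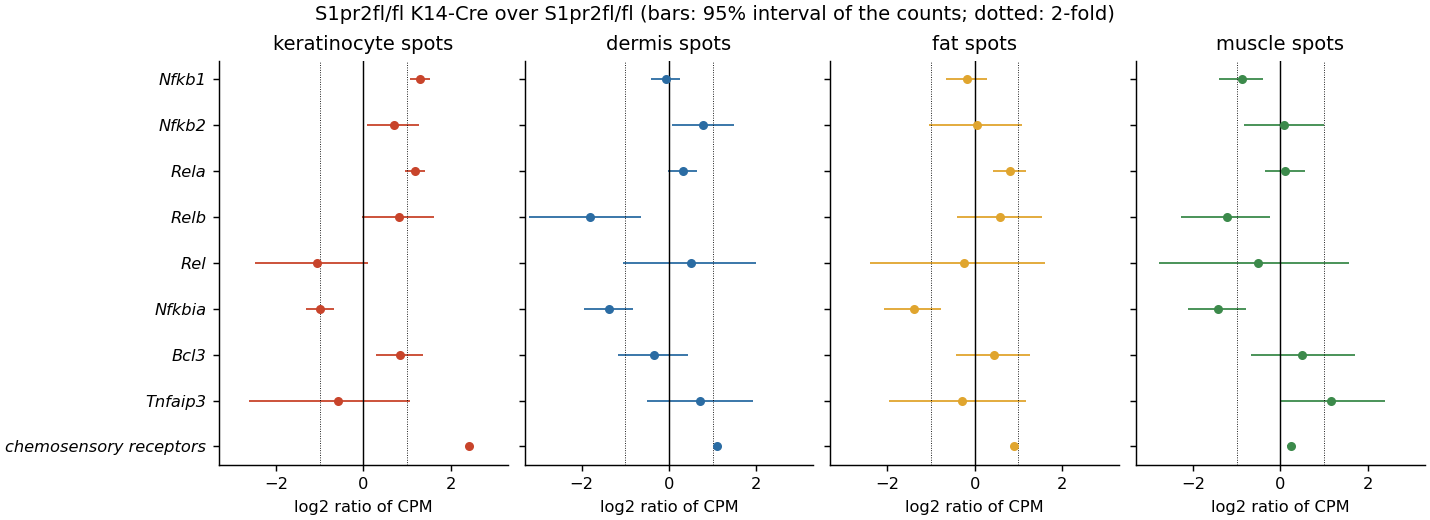
Log2 ratio of CPM, S1pr2fl/fl K14-Cre over S1pr2fl/fl, for each member and for the summed chemosensory receptor genes in the 4 layers, with 95% intervals of the counts and dotted lines at 2-fold. In keratinocyte spots Nfkb1 (1.29) and Rela (1.18) lie right of the upper line and the receptor genes at 2.41, and in muscle spots Nfkb1 lies at -0.89 and Nfkbia at -1.43.

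Depth in the array column gave the same question an answer that uses no marker genes. In the 2 uppermost spots Nfkb1 had a ratio of 2.21 (1.89 to 2.58), in spots 3 and 4 a ratio of 0.710 (0.576 to 0.870), and in spots 5 and deeper a ratio of 0.561 (0.405 to 0.763). Rela had ratios of 2.22 (1.91 to 2.60), 1.29 (1.08 to 1.56) and 0.700 (0.517 to 0.936) in the same bands. Nfkb1 was therefore higher only in the uppermost band, while Rela was higher in the upper and middle bands and lower in the deepest band as a whole. Nfkbia had ratios of 0.455, 0.364 and 0.323, lower in each band. Bcl3 turned from 1.86 (1.27 to 2.72) in the uppermost band to 0.377 (0.173 to 0.737) in the deepest, and Tnfaip3 was 3.44-fold higher (1.59 to 7.64) in the deepest band on 13 and 18 UMIs. These Tnfaip3 UMIs lay in 9 of 405 and 9 of 195 spots, with up to 4 and 6 in a spot. Of the 66 Bcl3 UMIs in the deepest S1pr2fl/fl band, 51 lay in 1 of 4 segments and 35 in spots 8 and deeper. Keratinocyte markers rose in that section from 20576 CPM in spot 6 to 38493 CPM in spots 8 and deeper. Rank in the column was therefore not tissue depth throughout, and the bands were not repeated without the bent end. In the uppermost band Nfkb1 and Rela were at least 2-fold higher (36.4% of all genes) and Nfkbia at least 2-fold lower (6.46%). In spots 3 and 4 Rel and Nfkbia were at least 2-fold lower (12.9%) and 0 members at least 2-fold higher (11.0%), and in the deepest band Nfkbia and Bcl3 were at least 2-fold lower (19.9%) and Tnfaip3 at least 2-fold higher (8.59%). The log2 ratio in the uppermost band exceeded that in the deepest by 1.98 (1.49 to 2.47) for Nfkb1, by 1.67 (1.20 to 2.14) for Rela and by 1.46 (1.37 to 1.54) for the receptor genes. The value of the receptor genes lay within the interval of Rela, and their interval overlapped that of Nfkb1. The deepest band was thinner in the S1pr2fl/fl K14-Cre section, with 195 spots against 405. The bands also held different tissue in the sections. In the uppermost band 85.1% of spots were keratinocyte spots in the S1pr2fl/fl section and 67.25% in the S1pr2fl/fl K14-Cre section. Keratinocyte markers summed there to 86910 and 41174 CPM, dermis markers to 7076 and 13577 CPM and muscle markers to 915 and 6057 CPM. In spots 3 and 4 muscle markers summed to 23210 CPM in the S1pr2fl/fl section and 85666 CPM in the S1pr2fl/fl K14-Cre section. In spots 5 and deeper the sums were 36722 and 125216 CPM. The part of this in the ratios of the bands was not tested.

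Spot by spot from the upper edge, Nfkb1 fell in the S1pr2fl/fl K14-Cre section from 412 CPM in the uppermost spot to 250 CPM, 145 CPM and 91.7 CPM in the next spots. In the S1pr2fl/fl section it was lowest at the surface, with 115 CPM in the uppermost spot and 174 CPM, 198 CPM and 135 CPM in the next. The gradients ran in opposite directions over the first 3 spots. Over these spots the receptor genes rose in the S1pr2fl/fl section, with 1154, 2680 and 3567 CPM. In the S1pr2fl/fl K14-Cre section they had 10080, 10256 and 5694 CPM. The part of this background in the gradients of Nfkb1 was not tested. Rela fell in the S1pr2fl/fl K14-Cre section from 361 CPM and 301 CPM in the first spots to 188 CPM and 183 CPM in the next, and was level in the S1pr2fl/fl section, between 119 and 166 CPM over the same spots. Nfkbia was highest in the uppermost spot of both sections, with 243 CPM and 121 CPM, and lower at each of the next 3 spots in both. Keratinocyte markers declined over the first 4 spots in both sections, yet more steeply in the S1pr2fl/fl K14-Cre section, where their level in muscle spots was 4.07% of that in keratinocyte spots, against 18.2% in the S1pr2fl/fl section. Its part in the contrast between layers was not tested.

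**Figure D4:**
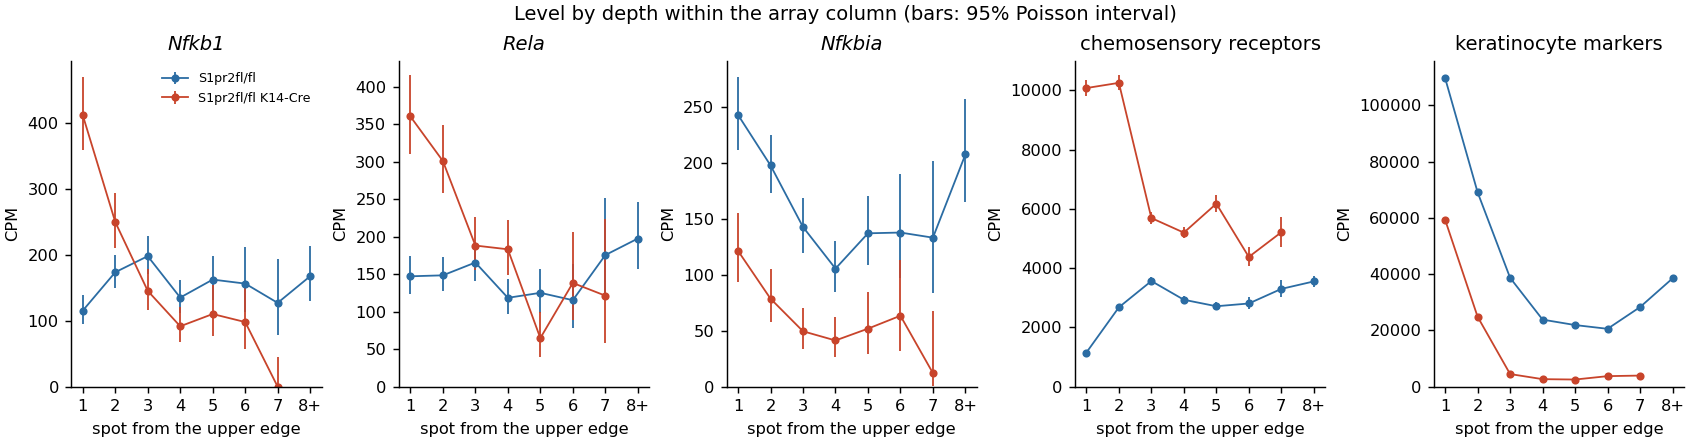
CPM of Nfkb1, Rela, Nfkbia, the summed chemosensory receptor genes and the summed keratinocyte markers by spot counted from the upper edge of each array column, with exact 95% Poisson intervals, for the S1pr2fl/fl section (blue) and the S1pr2fl/fl K14-Cre section (red). The Nfkb1 lines cross between the second and the third spot, the Nfkbia lines do not cross, and the receptor genes are higher in the S1pr2fl/fl K14-Cre section at every depth that both sections reach.

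Within each section the order of the layers differed by member. In the S1pr2fl/fl section Nfkb1 was highest in dermis spots (211 CPM) and its keratinocyte level (148 CPM) lay between fat (145 CPM) and dermis, with a ratio of keratinocyte to fat spots of 1.02 (0.827 to 1.26) that does not separate these neighbours. In the S1pr2fl/fl K14-Cre section the order of Nfkb1 was keratinocyte, dermis, fat and muscle, and the keratinocyte level was 5.83 times that in muscle spots (4.34 to 7.98), against 1.29 times (1.03 to 1.63) in the S1pr2fl/fl section. Rela was 3.37 times (2.64 to 4.35) higher in keratinocyte than in muscle spots in the S1pr2fl/fl K14-Cre section and 1.60 times (1.26 to 2.06) in the other. Nfkbia was highest in keratinocyte spots in both sections, 2.54 times (2.00 to 3.26) and 3.44 times (2.24 to 5.43) its level in muscle spots. At least 2-fold higher in keratinocyte than in muscle spots were Rel, Nfkbia and Bcl3 in the S1pr2fl/fl section, where 16.5% of all genes were, and Nfkb1, Rela, Nfkbia and Bcl3 in the S1pr2fl/fl K14-Cre section, where 37.1% of all genes were. Rel rested on 37 and 6 UMIs (2.52, 1.06 to 7.31). At least 2-fold lower were Relb in the S1pr2fl/fl section (0.422, 0.251 to 0.709), where 19.9% of all genes were, and Tnfaip3 in the S1pr2fl/fl K14-Cre section. There Tnfaip3 had 4 and 21 UMIs (0.185, 0.046 to 0.549), and 14.3% of all genes were at least 2-fold lower.

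Counts of 2 genes in the same spots can be set against each other without any scaling by total UMIs. Nfkb1 had 0.648 UMIs for each UMI of Nfkbia in the keratinocyte spots of the S1pr2fl/fl section and 3.15 in those of the S1pr2fl/fl K14-Cre section, a 4.86-fold difference (3.73 to 6.35). For Rela the values were 0.662 and 2.98, a 4.50-fold difference (3.45 to 5.88). The Rela to Nfkbia ratio was also higher in dermis (3.21-fold), fat (4.56-fold) and muscle spots (2.89-fold, 1.71 to 4.89). The Nfkb1 to Nfkbia ratio was 2.43-fold higher in dermis, 2.30-fold higher in fat and 1.46-fold in muscle spots, where the interval (0.845 to 2.51) includes no difference. Rela, Nfkb2 and Bcl3 stood higher against Nfkbia in the S1pr2fl/fl K14-Cre section in all 4 layers, with intervals above 1. Nfkbia was itself low there. Of all genes tested, 91.8% in keratinocyte, 93.7% in dermis, 92.0% in fat and 91.8% in muscle spots had a higher ratio than Nfkbia. Most genes therefore stood higher against Nfkbia, and no rise of a member is read from these values. For Rel in keratinocyte (0.950, 0.412 to 2.19), fat and muscle spots the intervals included no difference. So did those of Relb in dermis and muscle spots (0.740 and 1.16) and of Tnfaip3 in keratinocyte and fat spots. Fewer cells of a type and less RNA per cell cannot be told apart in these spots.

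Per spot, without scaling, Nfkb1 had 0.799 and 1.05 UMIs and Rela 0.816 and 0.993 UMIs in keratinocyte spots of the S1pr2fl/fl and S1pr2fl/fl K14-Cre sections. Nfkbia had 1.23 and 0.333 UMIs per spot. The median keratinocyte spot held 4574 UMIs in the S1pr2fl/fl section and 2284 UMIs in the S1pr2fl/fl K14-Cre section. The part of this difference in the ratios of CPM was not tested. When the keratinocyte spots of each section were divided into 4 segments along the section, the ranges of the segments did not overlap for Nfkb1 (85.2 to 202 CPM against 306 to 430 CPM), Rela (108 to 188 CPM against 249 to 534 CPM) or Nfkbia (171 to 285 CPM against 92.2 to 157 CPM). Of the 2918 genes with at least 200 UMIs in keratinocyte spots, which include these 3, 13.8% had every segment higher and 20.4% every segment lower in the S1pr2fl/fl K14-Cre section. Segments of a section are not replicates, and the levels of Nfkb1 and Rela were known when the members were chosen. Markers of leukocytes, the cells in which Rel is best known, summed to 24534 CPM in keratinocyte spots of the S1pr2fl/fl section and 7990 CPM in those of the other, with none of the 10 at 0. Without S100a8 and S100a9, which inflamed keratinocytes also make, the sums were 1214 and 1295 CPM. Their part in the members' levels was not tested.

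The rest of the pathway was read from lists of kinases, other inhibitors and target genes in keratinocyte spots, where 32.9% of all genes were at least 2-fold higher and 8.10% at least 2-fold lower. Of 6 kinases, Map3k14, the NF-κB-inducing kinase of the noncanonical pathway, was at least 2-fold higher (10.1 and 21.9 CPM, 2.18-fold, 1.11 to 4.21), and Ikbkg, the regulatory subunit of IKK, was at least 2-fold lower on 20 and 3 UMIs. In the 2 uppermost spots, picked without markers, 0 of the 6 kinases were at least 2-fold higher, where 36.4% of all genes were, so the call of Map3k14 was lost. Ikbkg was at least 2-fold lower there too, where 6.46% of all genes were. The catalytic IKK gene Ikbkb had 35.3 and 31.2 CPM, a ratio of 0.883 (0.548 to 1.39). Of 12 other inhibitors and ubiquitin editors, Birc2 (20.6 and 82.0 CPM, 3.97-fold, 2.70 to 5.91) and Nfkbid (8.25 and 26.6 CPM) were at least 2-fold higher and Nfkbiz was at least 2-fold lower, so 2 of 12 and 1 of 12 beside 32.9% and 8.10% of all genes. Birc2 encodes a ubiquitin ligase that keeps the noncanonical pathway off, and Nfkbiz encodes an atypical IκB protein that takes part in the keratinocyte response to interleukin 17. Nfkbiz had 78.8 CPM (172 UMIs) and 30.0 CPM (26 UMIs), a ratio of 0.381 (0.242 to 0.577). Nfkbib, the gene of the related inhibitor IκBβ, had 109 and 184 CPM, a ratio of 1.69 (1.37 to 2.08), against the direction of Nfkbia.

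Of 15 target genes found, 11 had enough UMIs, and 5 of them (Il6, Ccl20, Ptgs2, Csf2 and Il23a) were at least 2-fold higher and 1 (Icam1) at least 2-fold lower, beside the same 32.9% and 8.10%. The higher ones were sparse. Il6 had 10 and 10 UMIs, Ptgs2 3 and 17 UMIs, Ccl20 14 and 24 UMIs, Csf2 14 and 26 UMIs and Il23a 10 and 28 UMIs, beside means of 3.65 and 7.68 UMIs for a receptor gene in the same spots. Icam1 had 34 UMIs and 1 UMI. The well-counted targets moved less: Sod2, a mitochondrial superoxide dismutase, had 307 and 371 CPM (ratio 1.21, 1.05 to 1.38), Lcn2, an iron-sequestering antimicrobial protein, 290 and 281 CPM (0.969, 0.832 to 1.12), and Saa3, an acute-phase protein, 466 and 271 CPM (0.583, 0.503 to 0.672). The median log2 ratio of the targets tested was 0.42, beside 0.45 for all genes tested. It was -0.02 for the kinases and 0.32 for the other inhibitors.

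The genes whose pattern was most like that of a member were taken by Pearson correlation of log2(CPM + 10) over the 8 regions given by 4 layers in 2 sections, among 7584 genes with at least 200 UMIs. These regions share sections and depth, so the values are descriptions. For Nfkb1 the nearest was Slc35f6 (r = 0.98), followed by Rexo4, Fam76a, Ncbp3 and Sirt7. For Rela it was Spc24 (r = 0.98), followed by Ptms, Gnl3, Pdia3 and Adck5, and for Nfkbia it was Plekhn1 (r = 0.99), followed by Rnf39, Skint3, Sept5 and Txndc17. Among the members, Rela was nearest to Bcl3 (r = 0.92) and Nfkb1 to Rela (r = 0.80), while Rela and Nfkbia had r = 0.09.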

How the data were processed

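The authors deposited UMI counts, not normalized, for the spots under tissue of 2 Visium CytAssist FFPE sections (10 μm thick, capture areas of 11 mm, probe-based), with spot positions. The file header names Space Ranger 3.0.0 and the submitters' processing notes name mm10; the probe set is not given in the sources used here. Members and lists were chosen with earlier results of these data known.

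Spots with at least 50 UMIs were assigned to the keratinocyte, dermis, fat or muscle list with the highest share of UMIs relative to the section's mean, if at least 1 with at least 3 UMIs of the list, and otherwise called mixed. Depth was the rank of a spot from the upper edge of its array column, in connected groups of at least 20 spots. Summed counts were divided by all UMIs of the layer and section (CPM). Intervals (95%) were exact Poisson for levels and conditional binomial for ratios, and those of differences of log2 ratios came from the 4 counts. Genes past 2-fold were counted among those with at least 20 UMIs in the layer. Levels of different genes depend on their probes and were set against each other only for the receptor genes and for the UMIs per UMI of Nfkbia. The sections hold 5315351 and 2845826 UMIs, and 357 spot barcodes occur in both because they name positions of the same array design. All 8 members were named, with the pathway genes of 3 lists (15 of 16 targets found by symbol). Python 3.11.15, pandas 2.3.3, numpy 2.4.6, scipy 1.17.1 and matplotlib 3.10.9 were used, with edgeR 4.0.16 in R 4.3.3 for TMM factors alone. Ratios and intervals were tested on counts simulated as independent (Poisson), so this could not show how the intervals do where UMIs gather in few spots. Alternatives covered the layers, scaling, spot and gene minimums and the receptor background.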

Additional observations from a re-analysis of the deposited data

Results flagged for a closer look

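Nfkb1 stood out because its log2 ratio between the sections had opposite signs in the surface and the deep layer, 1.29 in keratinocyte spots and -0.89 in muscle spots. With 1 section of each genotype this difference was not tested, and spots within a section are not replicates. Muscle markers in muscle spots summed to 83142 CPM in the S1pr2fl/fl section and 155244 CPM in the S1pr2fl/fl K14-Cre section. The part of this in the negative ratio was not tested. Nfkb1 was flagged by marker layer alone. By depth band Rela and Bcl3 turned as well, with ratios of 2.22 and 1.86 in the uppermost band and 0.700 and 0.377 in the deepest. The change of sign is therefore not particular to Nfkb1 among the members.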

How the results depend on the processing

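No paired analysis was possible because each genotype had 1 section. The scaling decided the size of the ratios at the surface. The TMM factor shifted log2 ratios in keratinocyte spots by 0.77, the median of the 7351 genes with at least 20 UMIs in each section by 0.24, and the median of all 13116 genes tested, an alternative added after seeing the data, by 0.45. For Nfkb1 at the surface the log2 ratio was 0.52 with TMM, 1.05 with the median of the 7351 genes set to 0, 0.83 with that of all genes tested, 0.39 as UMIs per spot, 1.83 in the uppermost spot alone, 1.60 with marker lists at least 2-fold over the mean and 1.62 without the bent end of each section (an alternative added after seeing the data). For Rela it was 0.41, 0.94, 0.72 and 0.28 under the first 4 of these and 1.41 as the mean over spots, and for Nfkbia it was -1.76 with TMM, -1.45 with the median of all genes tested and -1.89 as UMIs per spot. Surface minus deep, Nfkb1 was 1.25 with TMM, 1.52 with the median of all genes tested and 1.37 as UMIs per spot, and Rela was 0.15 with TMM, 0.42 with that median, 0.27 as UMIs per spot, 1.67 by depth bands and 1.81 with the uppermost spot. The sign turned for Nfkb2 (-0.078 with TMM, -0.19 as the mean over spots, -0.20 as UMIs per spot) and for Bcl3 (-0.057 as UMIs per spot). It also turned for Relb (-0.081 as UMIs per spot) and Tnfaip3 (0.27 in the 2 uppermost spots, 0.051 in the uppermost), whose intervals include equal levels in the main setting. The cause was not tested.

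Members at least 2-fold higher at the surface numbered 0 with TMM, with the median of all genes tested and as UMIs per spot. As UMIs per spot 15.3% of all genes were at least 2-fold higher. Such members numbered 1 with the median of the 7351 genes (27.0% of all genes). They numbered 4 with the stricter marker lists (29.5%) and without the bent end (27.7%). Members at least 2-fold lower there numbered 2 with TMM, with either median and as UMIs per spot. The shares of all genes were 12.4% with the median of the 7351 genes and 30.1% as UMIs per spot. Lower members also numbered 2 as the mean over spots (9.74%) and after taking off the receptor background (21.7%). They numbered 0 with the stricter lists (10.7%), with at least 500 UMIs per spot (8.22%) and with at least 50 UMIs per gene (10.8%). In muscle spots, members at least 2-fold higher numbered 2 as the mean over spots (8.84% of all genes). They numbered 0 without the bent end (4.87%) and with at least 50 UMIs per gene (2.89%), where 1 was lower (12.3%). With TMM 17.1% of all genes were at least 2-fold higher and 25.8% at least 2-fold lower in keratinocyte spots, and with the median of all genes tested 22.6% and 17.0%, in place of 32.9% and 8.10%. Under every alternative run Nfkb1 and Rela kept a positive and Nfkbia a negative log2 ratio at the surface, from 0.39 to 1.83, 0.28 to 1.41 and -1.89 to -0.85. Counts limit Rel and Tnfaip3, which had 7 and 4 UMIs in the keratinocyte spots of the S1pr2fl/fl K14-Cre section.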
